A study of Mus musculus with 4 samples.

Results

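The genes described here are 10 Wnt ligands of the developing limb, chosen by symbol from knowledge of where each is made: Wnt3, Wnt4, Wnt6, Wnt7a, Wnt7b, Wnt10a and Wnt10b, known from limb ectoderm, and Wnt5a, Wnt5b and Wnt11, known from limb mesenchyme. All 10 were found among the 25239 gene symbols of the count table. RNA had been sequenced from hindlimb buds of FVB mouse embryos at embryonic day 11.5. All embryos were labelled wild-type and carried a reporter at the H11 safe-harbour locus, H11 hsp68-hZRS(404G>A)-mCherry, in which the human ZRS limb enhancer of Shh with a base change at position 404 acts through the hsp68 minimal promoter on the red fluorescent protein mCherry. Cells were dissected and sorted into an anterior, mCherry-positive population and a central, mCherry-negative population, with 2 libraries each. Every anterior library therefore differs from every central one both in position and in the fluorescence gate. The labels do not say whether embryos were pooled or whether replicates came from separate litters, so p-values measure only the spread between these libraries.

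Wnt proteins are secreted, lipid-modified signals. They bind Frizzled receptors, and with the co-receptors Lrp5 and Lrp6 they stabilise beta-catenin, which acts with Tcf and Lef factors in the nucleus. Wnt5a and Wnt11 are best known for signalling without beta-catenin, through the Ror receptors and the planar cell polarity pathway. In the limb bud, ectodermal Wnt3 is needed for the apical ectodermal ridge, a strip of thickened epithelium that makes Fgf8. Dorsal ectodermal Wnt7a induces Lmx1b in the mesenchyme beneath it, En1 keeps Wnt7a out of ventral ectoderm, and Wnt5a is needed for outgrowth along the limb axis.

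Promoter sequences were in the RefSeq table (GRCm38.p6) for 7 of the 10 ligands, in 10 windows of 300 bases that run from 250 bases before a transcript start to 50 after it. The windows of 3 ligands that were lower in anterior cells are shown, chosen to set Wnt11, which was even between central replicates, beside Wnt6 and Wnt3, which were not. Capitals mark matches, on either strand, to the TCF/LEF motif CTTTGAT, the AP-2 motif GCCNNNGGC, the ETS core CCGGAA or the TATA box TATAAA, and no marked match overlaps another in these windows. The Wnt6 window is chr1:74771642-74771941 on the plus strand, the Wnt3 window is chr11:103773925-103774224 on the plus strand, and the Wnt11 window, the first of 2 for that gene, is chr7:98834862-98835161 on the plus strand.
Wnt6: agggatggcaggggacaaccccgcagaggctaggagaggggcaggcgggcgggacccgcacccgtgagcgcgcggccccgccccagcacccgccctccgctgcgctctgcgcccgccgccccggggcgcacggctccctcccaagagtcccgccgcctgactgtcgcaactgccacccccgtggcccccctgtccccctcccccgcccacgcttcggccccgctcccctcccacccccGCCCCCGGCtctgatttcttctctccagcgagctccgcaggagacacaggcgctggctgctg
Wnt3: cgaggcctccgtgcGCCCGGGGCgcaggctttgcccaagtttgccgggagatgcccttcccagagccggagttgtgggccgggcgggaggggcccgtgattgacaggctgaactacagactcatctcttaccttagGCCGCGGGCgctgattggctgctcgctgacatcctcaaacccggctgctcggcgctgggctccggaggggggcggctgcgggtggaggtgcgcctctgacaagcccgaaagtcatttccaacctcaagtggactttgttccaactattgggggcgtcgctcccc
Wnt11: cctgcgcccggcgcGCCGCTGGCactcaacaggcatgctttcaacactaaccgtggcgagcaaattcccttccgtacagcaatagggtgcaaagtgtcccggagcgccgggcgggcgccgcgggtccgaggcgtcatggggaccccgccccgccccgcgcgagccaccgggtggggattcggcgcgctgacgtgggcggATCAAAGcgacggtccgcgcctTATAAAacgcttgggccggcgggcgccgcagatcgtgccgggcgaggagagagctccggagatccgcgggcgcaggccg
The Wnt11 window holds a TCF/LEF match that begins at position -51 and a TATA box at position -29, counted from the transcript start. The TCF/LEF letters occur in 3.73% of the 32544 mouse promoter windows of this length. Among the 7 ligands with windows, they were found only in those of Wnt11 and Wnt5b. AP-2 letters were in 7 of the 10 ligand windows, against 16.7% of all windows. Counted by gene, 6 of the 7 ligands had them in at least 1 window, Wnt7a being the one without. The 3 windows shown are rich in G and C, at 76.7% for Wnt6, 65.7% for Wnt3 and 71.3% for Wnt11, against a median of 53% over all windows. The other ligand windows ran from 53%, for a window of Wnt5b, to 84.3% for Wnt4, and the second Wnt11 window had 59.3%. The part of base composition in the AP-2 matches was not tested. ETS letters were in 1 ligand window and TATA letters in 1, against 15% and 13.6% of all windows. A match describes these letters and is no evidence that a factor binds there.

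The 7 ectodermal ligands were all lower in anterior than in central cells, with no overlap between the libraries of the groups, while the 3 mesenchymal ligands did not share a direction. Wnt5a was 2.63-fold higher in anterior cells, Wnt11 was 7.50-fold lower, and Wnt5b was not called. Of the 9 ligands that passed the filter on low counts, 7 were called lower and 1 higher, against 12.3% and 10.7% of the 14610 genes tested (22.9% in either direction; edgeR quasi-likelihood test, adjusted p under 0.05). The same shares are the baseline for the gene lists counted below. Wnt10b did not pass the filter and was not tested. Wnt6, Wnt7a, Wnt7b and Wnt10a passed it through their central counts alone and so had to differ, and their calls are given as a description. Non-overlapping groups by themselves say little, since among all tested genes the anterior libraries lay entirely below the central ones for 32.6%, entirely above for 30.8%, and either way for 63.5%.

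**Figure D1:**
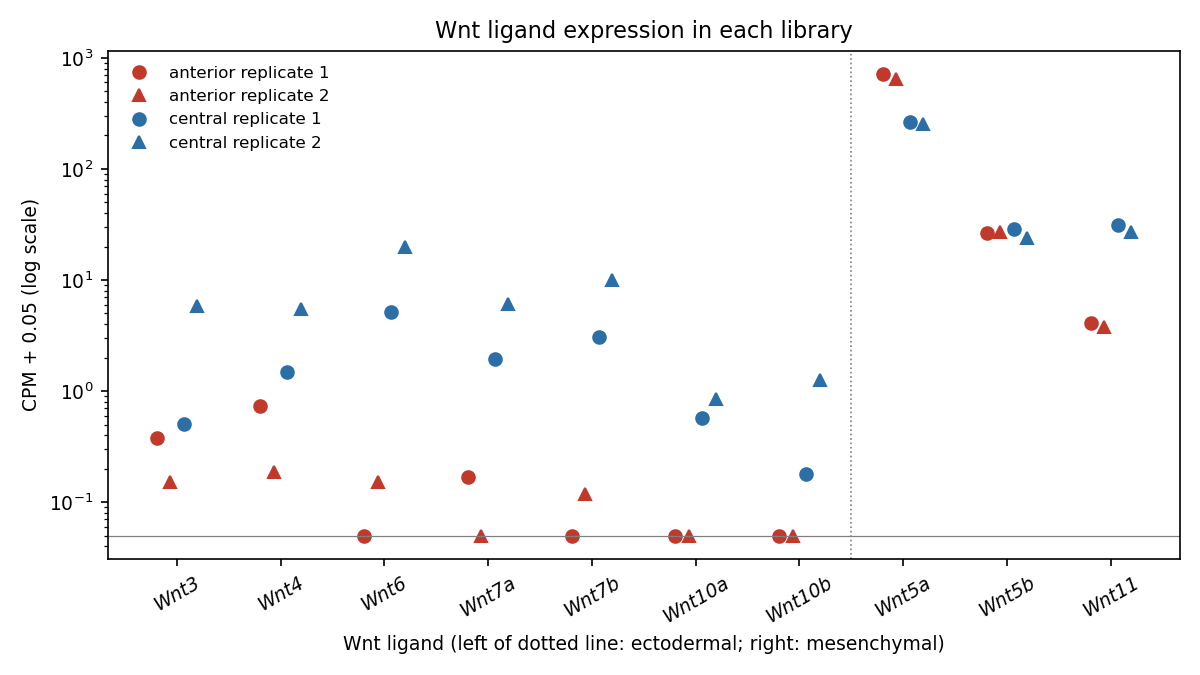
Expression of each of the 10 Wnt ligands in each of the 4 libraries, as TMM-scaled CPM plus an offset of 0.05 on a log axis, so that points on the grey line are libraries with 0 counts; circles are replicate 1 and triangles replicate 2. The ectodermal ligands are below 1 CPM in anterior cells and higher in central replicate 2 than in central replicate 1, and the mesenchymal ligands agree closely between replicates.

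Wnt5a, the ligand of limb outgrowth and a signal through Ror2, had 23902 and 18871 counts in the anterior samples against 8121 and 8202 in the central samples. Both anterior libraries were above both central ones, and the replicates of each group lay close together. Scaled to library size by TMM, its anterior level was 680 ± 51.9 CPM (scaled counts per 1 M library counts) against 259 ± 7.29 centrally (SD, n = 2). The log2 fold change was 1.40 ± 0.07 (SE; edgeR adjusted p-value 5.87e-06). The gene occupies 22699 bp on the plus strand of chromosome 14 (28504750 to 28527448, GENCODE M21, GRCm38). An antisense gene, Gm2670, shares exonic bases with it but is not listed in the count table, and whether counting used strand is not given in the sources used here.

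Wnt11, a ligand best known for beta-catenin-independent signalling, had 134 and 110 counts in the anterior samples against 970 and 869 in the central samples. The groups were far apart compared with the spread within each. Its levels were 3.88 ± 0.19 and 29.2 ± 3.29 CPM (SD, n = 2), and the log2 fold change was -2.91 ± 0.15 (SE; edgeR adjusted p-value 6.36e-06). Wnt11 lies on the plus strand of chromosome 7 (98835112 to 98855195), and a processed pseudogene on the other strand, Gm8398, not listed in the count table, shares exonic bases with it.

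Wnt5b, the close relative of Wnt5a, had 883 and 789 counts in the anterior samples against 881 and 772 in the central samples. The libraries of both groups overlapped. Its levels were 26.7 ± 0.30 and 26.2 ± 3.36 CPM (SD, n = 2), a log2 change of 0.03 ± 0.12 (SE; edgeR adjusted p-value 0.902). Its sign turned with the scaling, to -0.0062 with library size alone. The gene spans 111817 bp of the minus strand of chromosome 6, and the unrelated gene Fbxl14 lies within that span on the other strand without sharing exonic bases.

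Wnt6, an ectodermal ligand that can signal through beta-catenin, had 0 and 3 counts in the anterior samples against 158 and 639 in the central samples. The central libraries thus differed from each other by 3.85-fold in CPM. Pooled over libraries, the CPM was 264-fold higher in central cells, with a 95% interval of 89.9 to 1281 that covers counting error only. The edgeR adjusted p-value was 0.000619, and 0.0487 with limma-voom. Wnt6 lies on the plus strand of chromosome 1 (74771892 to 74785322).

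Wnt7b, closely related to Wnt7a, had 0 and 2 counts in the anterior samples against 92 and 322 in the central samples. Its pooled ratio was 205-fold in favour of central cells (counting interval 56.5 to 1702; edgeR adjusted p-value 0.000721). It lies on the minus strand of chromosome 15 (85535437 to 85582473), where the antisense gene AU022754, listed at 0 in every library, shares exonic bases with it. Wnt7a, the dorsalising signal, had 4 and 0 counts in the anterior samples against 58 and 196 in the central samples. Its levels were 0.060 ± 0.085 and 3.97 ± 2.95 CPM (SD, n = 2), with a fitted log2 fold change of -5.89 ± 0.92 (SE; edgeR adjusted p-value 0.00236), and it lies on the minus strand of chromosome 6 (91363981 to 91411363). All 3 of Wnt6, Wnt7a and Wnt7b were higher in central replicate 2 than in central replicate 1. The fitted fold changes of these ligands hang on a few anterior counts: without anterior replicate 2 that of Wnt6 was -11.64 and that of Wnt7b -10.70, and without anterior replicate 1 that of Wnt7a was -9.94. Without central replicate 2 those of Wnt6, Wnt7b and Wnt7a were -6.62, -6.37 and -4.82. All 3 ligands passed the filter through their central counts alone, so these fits are a description.

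Wnt10a and Wnt10b, ligands known from ectodermal appendages such as teeth and hair, had 0 counts in both anterior libraries. Wnt10a had 16 and 26 counts in the central libraries and Wnt10b had 4 and 39. Against a floor of 3 counts in each library, Wnt10a was at least 6.88-fold lower and Wnt10b at least 6.94-fold lower in anterior cells. The bound of Wnt10b rests on central replicate 2, being 1.35-fold without it and 12.5-fold without central replicate 1. Wnt10a was called (edgeR adjusted p-value 0.00835). Wnt10a lies 6194 bp from Wnt6 on chromosome 1 on the same strand, and both were nearly absent from anterior cells, but they differed in the central libraries, where Wnt6 was 3.85-fold and Wnt10a 1.55-fold higher in replicate 2.

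Wnt3, the ligand behind the apical ridge, had 11 and 3 counts in the anterior samples against 14 and 188 in the central samples. The call rests on central replicate 2, since central replicate 1 was barely above anterior replicate 1, at 0.455 against 0.330 CPM. The log2 fold change was -3.81 ± 1.10 (SE; edgeR adjusted p-value 0.0372). It was -1.04 with an adjusted p-value of 0.606 without central replicate 2, and the adjusted p-value was 0.0661 without anterior replicate 2. Other tests did not call it either, at adjusted p-values of 0.0763 with the DESeq2 Wald test and 0.222 with limma-voom.

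Wnt4, better known from kidney and gonad and also expressed in limb ectoderm and joints, had 23 and 4 counts in the anterior samples against 44 and 176 in the central samples. The anterior libraries were themselves unequal, at 0.690 and 0.136 CPM. The log2 fold change was -3.02 ± 0.79 (SE; edgeR adjusted p-value 0.0252), and -1.76 with an adjusted p-value of 0.170 without central replicate 2. Wnt4 was not called with limma-voom (adjusted p-value 0.0708).

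Levels of different ligands were compared per kilobase of exon. In central cells Wnt5a was highest at 33.0 ± 0.93 CPM per kilobase, followed by Wnt5b at 9.88 ± 1.27 and Wnt11 at 7.05 ± 0.79 (SD, n = 2). The libraries of these 3 ligands did not overlap one another. Wnt6, the highest of the ectodermal ligands at 5.67 ± 4.71 CPM per kilobase, overlapped both Wnt11 and Wnt5b in the central libraries. Wnt7b, Wnt7a, Wnt3 and Wnt4 came next, with means of 1.32, 1.25, 1.02 and 0.819 CPM per kilobase, and each overlapped its neighbour in that order. Wnt10a and Wnt10b had the lowest means, at 0.268 and 0.196 CPM per kilobase, but their libraries overlapped each other and those of Wnt3, and Wnt10b also overlapped Wnt4. In central replicate 1, Wnt3 was below Wnt10a, at 0.148 against 0.211 CPM per kilobase.

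In anterior cells Wnt5a reached 86.9 ± 6.63 CPM per kilobase, Wnt5b 10.1 ± 0.11 and Wnt11 0.939 ± 0.046 (SD, n = 2). No ectodermal ligand had an anterior mean above 0.098 CPM per kilobase, which was the level of Wnt4. Of the summed level of the 10 ligands per exon length, Wnt5a made up 88.6% in anterior and 54.6% in central cells, and Wnt11 0.957% and 11.6%.

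**Figure D2:**
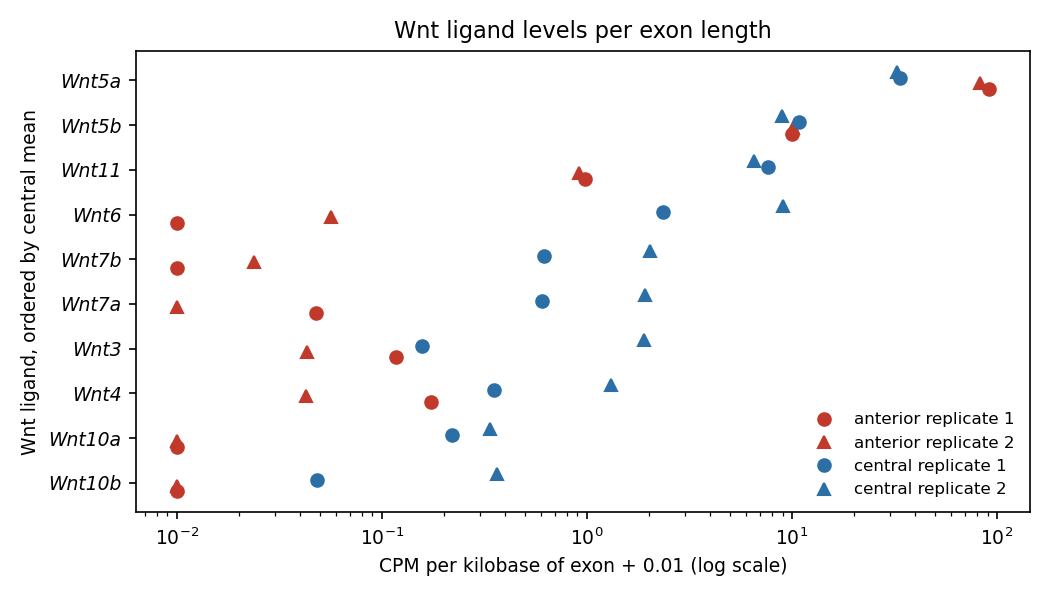
Level of each ligand in each library as CPM per kilobase of exon, plus an offset of 0.01, on a log axis, with ligands ordered by their mean in the central libraries. Wnt5a is highest in every library, and Wnt11 shifts from just below Wnt5b in central cells to well below it in anterior cells.

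The ectodermal ligands and the summed markers of surface ectoderm were both lower in anterior than in central cells. They did not move together between the anterior libraries. There the ligands summed to 1.14 and 0.409 CPM and the markers to 11.8 and 11.7 CPM. Summed over the 7 ligands, there were 38 and 12 counts in the anterior samples against 386 and 1586 in the central samples. The 14 surface ectoderm markers summed to 395 and 343 counts in the anterior samples against 1741 and 5912 in the central samples. Of these markers, 12 were called lower in anterior cells and none higher (3 lower with limma-voom), against 12.3% and 10.7% of all tested genes. Of the 14, 8 passed the filter through their central counts alone, so the count is a description. The defining epidermal genes were near 0 in anterior cells. Trp63, the epidermal master regulator, had 4 and 4 counts against 134 and 753, Krt14 had 2 and 4 against 60 and 202, and Cdh1, which encodes E-cadherin, had 8 and 0 against 110 and 504. Of the anterior marker counts, 76.5% and 81.9% came from Krt8, Krt18 and Epcam, which are not confined to epidermis. In bulk samples such as these, fewer ectodermal cells and less ligand RNA per ectodermal cell cannot be told apart, and the part of ectoderm content in the ligand differences was not tested.

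The central libraries differed from each other in the ectodermal ligands and in the ectoderm markers. The 7 ectodermal ligands summed to 3.91-fold more CPM in central replicate 2 than in central replicate 1, and the 14 ectoderm markers to 3.23-fold more. Gene by gene, the ratios ran from 1.55 to 12.8 for the ligands, with a median of 3.81, and from 1.11 to 6.41 for the markers, with a median of 3.90. Over all tested genes the median ratio was 0.998, and 2.71% of genes had a ratio of at least 2. The mesenchymal ligands had ratios of 0.961 for Wnt5a, 0.834 for Wnt5b and 0.852 for Wnt11, and the 8 limb mesenchyme markers had a median of 0.886. Markers of other cell types also differed between the central libraries. Tested endothelial markers had a median ratio of 1.42, cartilage markers 0.764, and muscle precursor markers 0.813 (from 0.272 to 1.25). These ratios compare 1 library with another and have no replicate check.

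**Figure D3:**
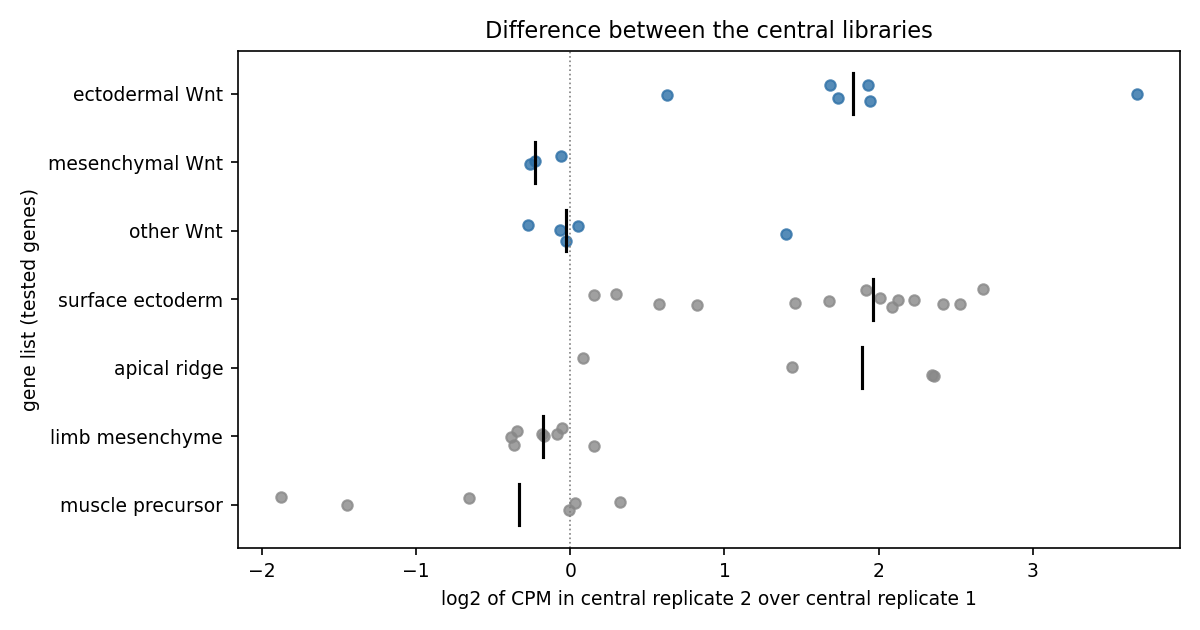
Log2 ratio of CPM in central replicate 2 over central replicate 1 for each tested gene of the Wnt ligand lists (blue) and of marker lists (grey), with a black bar at each list's median. The ectodermal ligands lie to the right, as do most surface ectoderm and apical ridge markers (Fgf9, at a ratio of 1.06, does not), and the mesenchymal ligands lie near 0 with the limb mesenchyme markers.

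The ligands were also set against the ectoderm markers of the same library. Wnt7a had 33.3 and 33.2 counts per 1000 ectoderm marker counts in central replicates 1 and 2. Wnt7b had 52.8 and 54.5, Wnt4 had 25.3 and 29.8, and Wnt6 had 90.8 (95% exact Poisson interval 77.2 to 106) and 108 (99.9 to 117). From replicate 1 to replicate 2 these proportions differed by factors of 0.995 for Wnt7a, 1.03 for Wnt7b, 1.18 for Wnt4 and 1.19 for Wnt6, where the CPM of these 4 differed by 3.22-fold to 3.85-fold. Without Krt5, the most abundant marker, the factors were 1.07, 1.10, 1.26 and 1.28. Wnt3 had a factor of 3.95, at 8.04 (4.40 to 13.5) and 31.8 (27.4 to 36.7) per 1000, and Wnt10a went the other way, at 9.19 (5.25 to 14.9) and 4.40 (2.87 to 6.44). Wnt10b, with few counts, had 2.30 (0.626 to 5.88) and 6.60 (4.69 to 9.02). The intervals cover counting error in the ligand only. In the anterior libraries the 7 ligands together had 96.2 and 35.0 counts per 1000 marker counts, against 222 and 268 in the central ones. Krt8, Krt18 and Epcam made up 76.5% and 81.9% of the anterior marker counts, but 43.6% and 24.3% of the central ones. The marker sums thus differ in make-up, and the anterior and central proportions are not comparable.

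Of 6 markers of the apical ridge 4 were tested, and 3 were called lower in anterior cells, against 12.3% of all tested genes. The ridge signal Fgf8 had 8 and 2 counts in the anterior samples against 177 and 946 in the central samples, a ratio of 5.08 between central replicates, beside 12.8 for Wnt3. Fgf8 was called lower in anterior cells (log2 change -6.75, SE 0.92, edgeR adjusted p-value 0.0012), although not with limma-voom (adjusted p-value 0.119), and its log2 fold change was -5.15 without central replicate 2 and -7.92 without anterior replicate 1. It too passed the filter through its central counts alone. Fgf9 had 13 and 8 counts in the anterior samples against 388 and 431 in the central samples, and was even between central replicates at a ratio of 1.06 (edgeR adjusted p-value 7.24e-06). Sp8 overlapped between the groups, at 128 and 96 counts against 82 and 442, and was not called (adjusted p-value 0.189).

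The dorsoventral partners of Wnt7a did not move as one. En1, the ventral ectodermal repressor of Wnt7a, had 0 counts in both anterior samples against 38 and 141 in the central samples, and was at least 29.1-fold lower in anterior cells against a floor of 3 counts in each library (edgeR adjusted p-value 0.00238). The bound was 12.8-fold without central replicate 2 and 45.3-fold without central replicate 1, and En1 passed the filter through its central counts alone, so its call is a description. Lmx1b, the dorsal mesenchymal gene downstream of Wnt7a, had 5372 and 4425 counts in the anterior samples against 5064 and 4962 in the central samples. Its libraries overlapped, at 156 ± 7.23 and 159 ± 7.88 CPM (SD, n = 2), and it was not called (log2 change -0.03, SE 0.07, edgeR adjusted p-value 0.828). Its levels overlapped between anterior libraries with 4 and 0 Wnt7a counts and central libraries with 58 and 196. These counts do not show how much Wnt7a protein from ectoderm reached the cells, which was not measured.

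Among the other 9 mouse Wnt ligands, 4 of 5 tested were called lower in anterior cells and none higher (12.3% and 10.7% over all tested genes). However, Wnt2, Wnt9b and Wnt16 passed the filter through their central counts alone and so had to differ, and their calls are given as a description. Wnt9a, known from developing joints, had 22 and 22 counts in the anterior samples against 177 and 178 in the central samples (log2 change -2.99, SE 0.32, edgeR adjusted p-value 0.000298). Wnt2 had 1 and 0 counts against 66 and 68, and Wnt16 had 2 and 0 against 46 and 40 (edgeR adjusted p-values 0.000597 and 0.00343). Unlike the ectodermal ligands, these 3 were even between the central libraries, with ratios of 0.957, 0.980 and 0.827. Wnt9b, which lies 24329 bp from Wnt3, had 6 and 2 counts against 18 and 50 and a ratio of 2.64. Its edgeR adjusted p-value was 0.0257, but 0.237 without central replicate 2, 0.125 without anterior replicate 2 and 0.0539 with limma-voom. Wnt2b was not called (adjusted p-value 0.142), and Wnt1, beside Wnt10b on chromosome 15, was listed at 0 in every library.

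Genes for the release of Wnt ligands were called in both directions or not at all. Wls, the carrier that brings Wnt proteins to the cell surface, was 144 ± 0.40 CPM in anterior cells against 116 ± 1.26 centrally (SD, n = 2; log2 fold change 0.31, edgeR adjusted p-value 0.00822), a call lost without anterior replicate 1 (adjusted p-value 0.0565) or anterior replicate 2 (0.0695). Porcn, which attaches the lipid, was not called (11.2 ± 1.58 and 12.8 ± 0.49 CPM, adjusted p-value 0.464). Of the 8 tested genes of secretion and release, 2 were called higher and 2 lower, beside 10.7% and 12.3% of all tested genes. Their median log2 fold change was -0.05 against -0.0087 over all tested genes. Those lower were the heparan sulfate proteoglycans Gpc4 and Gpc6, at log2 fold changes of -1.79 ± 0.33 and -0.59 ± 0.07 (SE). The larger of the rises was that of Tmed5, a cargo receptor of the early secretory path, at 0.49 ± 0.11 (SE). The change of Gpc4 was -2.59 without anterior replicate 1, and its counts were 285 and 102 in anterior samples against 685 and 636.

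Receptors for these ligands were split. Of 16 tested, 4 were called higher and 5 lower in anterior cells (10.7% and 12.3% over all tested genes), with a median log2 fold change of -0.0061. Ror1, a co-receptor for Wnt5a, had 152 and 64 counts in the anterior samples against 1408 and 1271 in the central samples (log2 change -3.64, SE 0.26, edgeR adjusted p-value 2.76e-05; -4.28 without anterior replicate 1). Its relative Ror2 was also lower but still abundant, at 92.9 ± 2.34 against 143 ± 10 CPM (SD, n = 2; log2 fold change -0.63, adjusted p-value 0.000539). So in the anterior cells, where Wnt5a was 2.63-fold higher, both Ror receptors were lower. Among Frizzled receptors, Fzd10 was higher, at 141 ± 0.36 against 36.0 ± 1.35 CPM, and Fzd8 and Fzd2 were lower, with log2 fold changes of -1.18 ± 0.13 and -0.70 ± 0.06 (SE). Of the 10 planar cell polarity genes, 8 were not called and the median log2 fold change was 0.07. Dact1, a Dishevelled-binding regulator, was lower at 29.8 ± 0.37 against 109 ± 6.0 CPM, and Prickle1 was higher by 0.55 on the log2 scale (edgeR adjusted p-values 2.71e-06 and 0.0109).

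**Figure D4:**
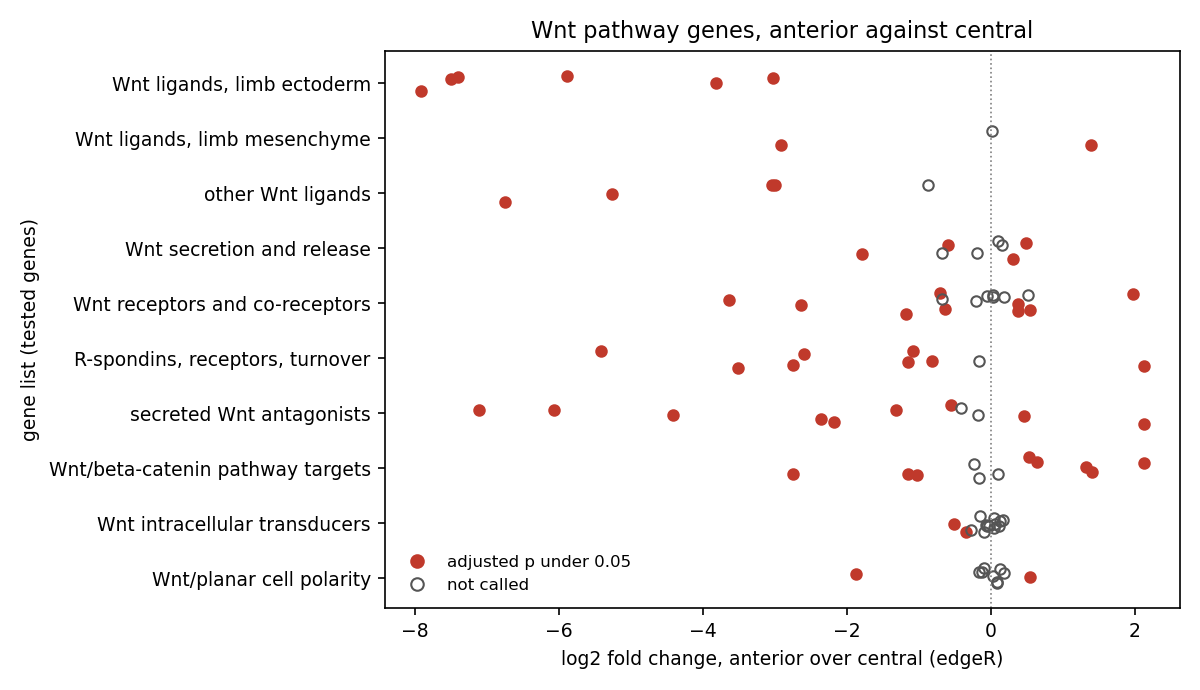
Log2 fold change of anterior over central cells from edgeR for each tested gene of the Wnt pathway lists, with filled points for genes at an adjusted p-value under 0.05 and open points for genes that were not called. Fitted values of genes with 0 to 3 anterior counts, such as Wnt6, Wnt7b and Wnt10a at the far left, are known only roughly. Intracellular transducers cluster near 0, while pathway targets lie on both sides.

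Target genes of the beta-catenin pathway were called in both directions. Of 11 tested, 5 were called higher in anterior cells, 3 lower and 3 neither, beside 10.7% higher and 12.3% lower over all tested genes. Several of the 11, Dkk1 and Rnf43 among them, are also counted in other lists of this report, so the list counts are not independent. Rnf43 passed the filter through its central counts alone. Their median log2 fold change was 0.10. Lef1, a nuclear partner and target of beta-catenin, had 6367 and 5066 counts in the anterior samples against 2129 and 2208 in the central samples, which is 182 ± 12.9 against 68.7 ± 0.65 CPM (SD, n = 2; log2 change 1.40, SE 0.07, edgeR adjusted p-value 6.26e-06). Axin2, a widely used readout of the pathway, was at 131 ± 11.5 against 83.7 ± 1.05 CPM (log2 change 0.64, SE 0.08, adjusted p-value 0.000674). Tcf7 and the secreted inhibitor Dkk1 were higher by 1.32 ± 0.15 and 2.13 ± 0.18 (SE) on the log2 scale. Rnf43, a Wnt-receptor ubiquitin ligase, was among those lower, at 7 and 7 counts against 16 and 81, but its adjusted p-value rose from 0.0412 to 0.513 without central replicate 2, 0.0894 without anterior replicate 1 and 0.0827 without anterior replicate 2, and its central libraries had a ratio of 4.82. The count of lower targets fell to 0 without anterior replicate 2 and to 1 without anterior replicate 1 or central replicate 2. Only 2 of the 14 intracellular transducers were called, both lower: Tcf7l2, by a log2 fold change of -0.51, and Dvl1, by -0.34, the latter with an adjusted p-value of 0.0666 without anterior replicate 1 and 0.114 without anterior replicate 2.

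R-spondins, which raise Wnt receptor levels by binding Lgr receptors, and their partners were mostly lower in anterior cells, with 7 of 9 called lower and 1 higher, at a median log2 fold change of -1.15 (4 lower without anterior replicate 2). Over all tested genes, 12.3% were called lower and 10.7% higher. Of the 9, 3 passed the filter through their central counts alone (Rspo1, Lgr6 and Rnf43). Rspo2 had 56 and 44 counts in the anterior samples against 468 and 685 in the central samples (log2 change -3.51, SE 0.24, edgeR adjusted p-value 2.14e-05). Rspo3 and Lgr4 were lower by log2 fold changes of -1.08 ± 0.10 and -0.81 ± 0.11 (SE). Rspo4 went the other way, at 14.2 ± 3.84 against 3.25 ± 0.45 CPM (SD, n = 2; log2 change 2.13, SE 0.24, adjusted p-value 0.000446).

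Wnt antagonists were also lower more often than higher, with 7 of 11 tested called lower and 2 higher (12.3% and 10.7% over all tested genes). Their median log2 fold change was -1.31. Kremen1 and Kremen2, both called lower, are membrane receptors for Dkk proteins, and the rest of the list is secreted. Sost and Kremen2, 2 of the 11, passed the filter through their central counts alone. Sfrp1, which binds Wnt proteins directly, was at 25.8 ± 2.04 CPM in anterior cells against 116 ± 10.8 (SD, n = 2; log2 change -2.17, SE 0.10, edgeR adjusted p-value 3.34e-06). Dkk2 was lower by a log2 fold change of -2.35 ± 0.29 and Sostdc1 by -4.41 ± 0.42 (SE), the latter -5.60 without anterior replicate 1 and -3.80 without anterior replicate 2. Dkk1 was higher, as given above, so that the related inhibitors Dkk1 and Dkk2 were called in opposite directions.

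By Euclidean distance between log2 CPM profiles centred over the 4 libraries, the genes nearest to Wnt5a among 10601 compared were Lef1 (distance 0.029), Pdzd2 (0.064) and Bmp4 (0.076). Those nearest to Wnt11 were Rbm24 (0.121), Nfatc2 (0.154) and Limch1 (0.210). Those nearest to Wnt6 were the epidermal genes Trp63 (0.994) and Krt5 (1.09) and the transcription factor gene Sim2 (1.27), at larger distances. With 4 libraries in 2 groups, such a distance rests on few values.

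Library totals ranged from 30080925 to 33257383 counts. The populations also differed in other cell types: the 6 erythroid markers summed to 3287 and 8382 CPM in anterior samples against 5.0 and 7.91 in central samples, the 6 muscle precursor markers to 0.750 and 0.511 against 84.6 and 71.7, and the 6 cartilage markers to 412 and 301 against 1501 and 1190. Of the 8 limb mesenchyme markers, 4 were called higher, 1 lower and 3 neither, beside 10.7% higher and 12.3% lower over all tested genes. Msx1, Lhx9, Prrx2 and Twist1 were higher by log2 fold changes of 3.26, 2.60, 1.91 and 0.83, Pdgfra was lower at -1.17, and Prrx1, Tbx4 and Pitx1 had edgeR adjusted p-values of 0.473, 0.223 and 0.707. The part of these cell types in the changes of Wnt5a, Wnt11 and the pathway genes was not tested.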

How the data were processed

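Wnt ligand RNA was measured by RNA sequencing in 2 anterior and 2 central libraries. The authors deposited whole-number read counts per gene symbol, not normalized. Per the submitters' processing notes, STAR 2.7.9a, HTSeq, DESeq2 (version given as 3.16) and build mm10 were used, with no role or order stated. Whether counting used strand is not given in the sources used here. Even numbers made up 72.8% to 75.6% of counts from 1 to 10, as when both mates of a pair are counted, so counting intervals may be too narrow, and halved counts were fitted as an alternative.

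Counts were tested with edgeR 4.0.16 (R 4.3.3): filterByExpr defaults, TMM scaling, quasi-likelihood F test, Benjamini-Hochberg adjustment over 14610 genes, threshold 0.05, 2 residual degrees of freedom. SE is the log2 fold change divided by the square root of F. Fits that leave out a library have 1 residual degree of freedom and assume that the lone library varies like the other group. Exon lengths and coordinates are from GENCODE M21. DESeq2 1.42.0 and limma-voom (limma 3.58.1) were alternatives. The edgeR script was tested on simulated counts. Intervals are at 95%, and a count of 0 was given a floor of 3 counts per library.

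Members and lists were chosen with earlier results of these data known. Named genes are the ligands, up to 4 called genes per list of at least 5 CPM by size of change, 8 fixed genes, and the 3 nearest profiles of each called ligand of at least 5 CPM. Genes named outside this rule (Wnt2, Wnt9a, Wnt9b, Wnt16, Wnt2b, Rnf43, Rspo1, Lgr6, Sost, Kremen1, Kremen2 and the markers) were chosen after their values were seen.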

Additional observations from a re-analysis of the deposited data

How the results depend on the processing

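The count of ligands called lower in anterior cells was 7 and ranged from 5 (limma-voom and halved counts) to 8 (no filter) over 9 alternatives in scaling, test, filter, block and halving, and 1 ligand was called higher in each. Of the 9 tested ligands, 6 kept direction and side of the threshold under all of these in which they were tested. Among these 6, only Wnt5a and Wnt11 passed the filter in both groups. Wnt6, Wnt7a, Wnt7b and Wnt10a passed it through their central counts alone and so had to differ, and their steadiness is a description. Wnt10a was not tested with halved counts or a mean count of at least 50, nor Wnt3 with halved counts. Wnt3 was not called with the DESeq2 Wald test (log2 fold change -3.85) or limma-voom (-3.04), nor Wnt4 with limma-voom (-3.07). Wnt5b, near 0, changed sign with library size alone (-0.0062) and upper-quartile factors (-0.013). The cause was not tested. Wnt10b, tested without a filter, had an edgeR adjusted p-value of 0.00596, and 0.00245 to 0.0626 in the 3 fits without 1 library that admitted it.

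Fits that each left out 1 library called 5 to 8 ligands lower. Their log2 fold changes ranged from -4.88 to -1.04 for Wnt3, -4.61 to -1.76 for Wnt4, -0.098 to 0.16 for Wnt5b, 1.32 to 1.48 for Wnt5a, -3.02 to -2.78 for Wnt11 and -0.074 to 0.027 for Lmx1b. Among all tested genes, calls higher in anterior cells numbered 1559, and 1032 and 809 without anterior replicates 1 and 2.

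Replicate numbers are shared between the groups, but the replicate differences of the populations correlated at only 0.046 across genes, so the numbers were not taken as pairs. With replicate number as a block, 7 ligands were called lower and 1 higher, with no ligand changing its call (Wnt3 had a log2 fold change of -3.07 and an adjusted p-value of 0.0382).

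Without Krt5, the most abundant ectoderm marker, the 7 ligands had 268 and 347 counts per 1000 marker counts in the central libraries, in place of 222 and 268. Levels per exon length moved by less than the spread between replicates with library size alone. Of 37 other genes examined, 32 kept direction and side under the 9 alternatives and 32 in the fits without 1 library. List counts that moved by over 1.5 times were, for lower calls, other Wnt ligands (4 to 1) and R-spondin genes (7 to 4) with a mean count of at least 50, R-spondin genes (7 to 4) without anterior replicate 2, pathway targets (3 to 1) with limma-voom and without anterior replicate 1 or central replicate 2, and to 0 without anterior replicate 2, ectoderm markers (12 to 3) with limma-voom, transducers (2 to 1 and 4) without anterior replicate 2 and central replicate 1, and polarity genes (1 to 2) without central replicate 1. For higher calls they were secretion genes (2 to 1) without either anterior replicate and polarity genes (1 to 2) without central replicate 2. Under the filter of a mean count of at least 50, Wnt2, Wnt9b, Wnt16, Rspo1, Lgr6 and Rnf43 were not tested. The drops of other Wnt ligands and R-spondin genes under that filter are therefore untested genes and not lost calls. With 2 libraries per group and anterior counts at or near 0, the folds of the ectodermal ligands are known only roughly.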
